A study of Rattus norvegicus with 14 samples.

Results

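The non-pregnant rats (NPr) of this series provided the resting transcriptome of the abdominal aorta, and the 4 arrays labelled non-pregnant in the authors' annotated table, of 14 arrays in all, were taken as its members. All 19357 genes of the Affymetrix Rat Gene 1.1 ST array were kept. The remaining arrays were of pregnant rats, with or without an infusion of lipopolysaccharide, and are not analysed here. NPr rats were female, outbred Wistar rats, age-matched to the pregnant animals. A cannula was placed in the jugular vein under isoflurane and oxygen, and saline was infused 14 days later. The rats were killed on diestrus, a phase of the rat cycle without ovulation, and no genotype, transgene or further agent was named. The aorta was freed of surrounding tissue and extracted whole, 100 ng of total RNA was labelled, and 1 array was run per animal, so that the 4 values of a gene are those of 4 rats. The animals are called 1 to 4 by the place of their columns only. With a single group there is no contrast to test, so levels and their spread are given as a description.

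The wall of the aorta has an inner endothelium in contact with the blood, a media of smooth muscle cells between sheets of elastin, and an outer adventitia of fibroblasts, matrix, nerve fibres, small vessels and resident macrophages. Fat lies against the adventitia, and in rodents the fat around the aorta has features of brown fat, which burns lipid for heat through the uncoupling protein Ucp1. Sympathetic nerves end at the border of adventitia and media, and their cell bodies lie in ganglia outside the wall. RNA from a whole vessel is a mixture of all of these, in which fewer cells of a type and less RNA per cell cannot be told apart.

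Levels are log2 intensities, on which 1 unit is a 2-fold difference. The 4 values of a gene are always listed for NPr animals 1, 2, 3 and 4 in turn, and a mean is given ± SD (n = 4). The 1184 odorant, vomeronasal, trace amine and taste receptor genes served as the background, since these receptors of smell and taste are hardly used by a vessel. The median of their means was 2.65, and their 95th percentile, 3.89, was taken as the threshold. Above it lay 13767 genes, 71.1% of the array, against a median of 5.59 over all genes. The mean of the receptors was 2.94 on the array of animal 1, against 2.64 to 2.73 on the other 3 arrays, so genes at background read highest in animal 1. Intensities also depend on how well the probes of a gene bind, so the order of genes below is one of intensity and not of transcript copies.

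The labelled tissue was checked against 4 markers. Acta2, the actin of smooth muscle, had 12.70, 12.93, 12.67 and 13.05, and Myh11, the smooth muscle myosin heavy chain, had 11.62, 11.85, 11.40 and 12.37. Pecam1, an adhesion protein of endothelial junctions, had 7.45, 7.54, 7.59 and 7.62, the narrowest range of these 4 genes at 0.16. Ucp1 was as bright as many genes of the wall in 3 animals and had 11.87, 11.28, 12.31 and 9.06. Its lowest and highest animals thus lay 3.25 log2 units apart, a 9.49-fold difference, whereas the 2 muscle markers differed by less than 1 unit. Ucp1 was read by only 9 probes, and the spread of genes with few probes is less certain. Ddx3y, the only gene among 7 listed Y-linked genes that the array covered, lay below the threshold in all animals, with 2.24, 3.43, 3.39 and 3.47.

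Among 244 genes of microRNAs, which are short RNAs that silence messenger RNAs through a match to their seed, the 2 brightest were Mir143 and Mir145. The microRNAs miR-143 and miR-145 are known from mice for their part in keeping vascular smooth muscle contractile, and both are cut from neighbouring hairpins of 1 transcript. The array reports the transcript of the hairpin and not the mature product. In the rat the hairpins lie on the minus strand at chr18:57371349-57371453 for Mir143 and chr18:57369983-57370070 for Mir145, 1278 bases apart (RefSeq, GRCr8). Their main mature products are shown because these genes carried the strongest microRNA signal of the vessel, 5′ to 3′ with the seed, bases 2 to 8, in capitals:
rno-miR-143-3p: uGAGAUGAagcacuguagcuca
rno-miR-145-5p: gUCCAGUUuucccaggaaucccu
The seeds are GAGAUGA and UCCAGUU, so the 2 microRNAs belong to different seed families although their genes are neighbours.

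Mir143 had 10.89, 10.30, 10.13 and 11.23, and Mir145 had 9.97, 9.81, 9.37 and 10.54. Animal 4 was the highest for both, as for the contractile genes below, and animal 3 the lowest. The next microRNA gene was Mir207 with a mean of 8.78 ± 0.35, followed by Mir125b2 with 7.84 ± 0.45 and Mir22 with 7.20 ± 0.39. Mir207 was read by only 5 probes, against 25 each for Mir143 and Mir145, so its place is less certain. The median over the 244 genes was 3.63, and 104 of them lay above the threshold. All 5 microRNA genes were named after their values had been seen.

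**Figure D1:**
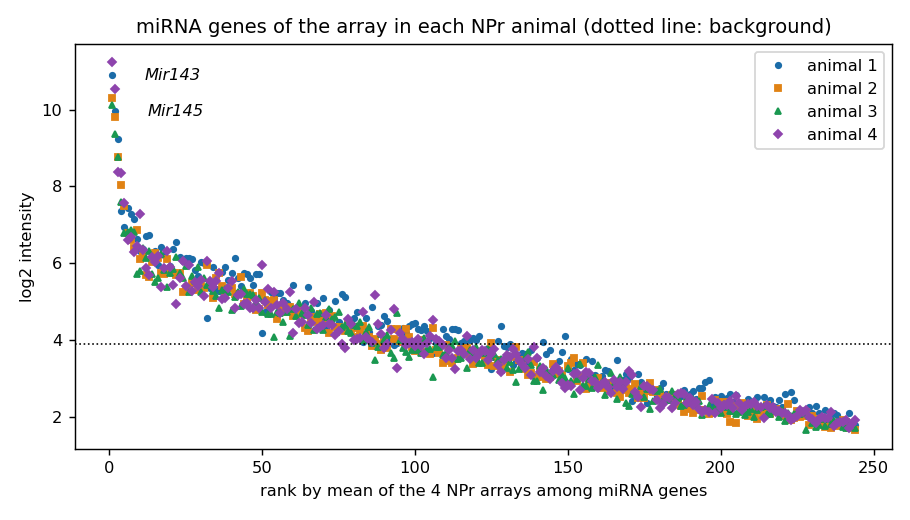
Log2 intensity of the 244 microRNA genes of the array in each of the 4 NPr animals, ordered along the horizontal axis by the mean of the 4 arrays, with a dotted line at the background threshold of 3.89. Mir143 and Mir145 stand at the left, with means of 10.64 and 9.92, and 104 genes have a mean above the line.

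Blood, contractile, matrix and fat genes were all among the brightest genes of the vessel. Hba2, an alpha chain of haemoglobin, led with a mean of 13.61 ± 0.29, although it was read by only 3 probes and near-identical alpha globin copies cannot be told apart by such an array. Fth1, the heavy chain of the iron store ferritin, followed with 12.96 ± 0.16, then Acta2 with 12.83 ± 0.18, Actb with 12.83 ± 0.09 and Igfbp7, a secreted binding protein of growth factors, with 12.82 ± 0.18. The matrix was represented by Bgn and Dcn, 2 small proteoglycans that bind collagen, with 12.71 ± 0.22 and 12.60 ± 0.20, by Sparc with 12.64 ± 0.14, by Eln, the elastin of the elastic sheets, with 12.04 ± 0.35, and by Mgp, which keeps the media free of calcium, with 12.04 ± 0.22. Fat was represented by Thrsp, a regulator of lipid synthesis, with 12.37 ± 0.65 and Scd1, the desaturase of fatty acids, with 12.10 ± 0.49. Dusp1, a phosphatase induced within minutes of a stimulus, ranked among the first 10 with 12.58 ± 0.29.

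A range over 1 log2 unit was found in 4 of the 30 brightest genes. Of the 30 brightest genes B2m, the light chain of class I histocompatibility molecules, had the narrowest range, 0.10 log2 units, with 12.02, 12.10, 12.09 and 12.00. Hbb, the beta chain of haemoglobin, had the widest, 1.53 units, with 13.09, 12.97, 12.56 and 11.56, and Thrsp, Scd1 and Pla2g2a, a secreted phospholipase, followed with 1.47, 1.06 and 1.03 units. Animal 4 was the lowest for Hbb, Thrsp and Scd1. Over all genes the median range between the 4 arrays was 0.49 log2 units, and 2248 genes, 11.6%, had a range over 1 unit.

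The lists of cell types and states were set against all genes by the median over their members, where the percentile is the share of genes with a lower mean. The contractile list of smooth muscle came first with a median of 10.63, at the 99th percentile, followed by the elastic fibre and matrix list with 10.02 and by the white and general adipocyte list with 9.90. The adventitial fibroblast and pericyte lists came next with 9.44 and 9.40. The macrophage list, 8.02, stood a little above the endothelial list, 7.84, and the brown adipocyte list had 7.02. The red cell list, 6.74, held both bright globins and faint genes of red cell precursors. The autonomic neuron list, 4.31, the skeletal muscle fibre list, 4.94, and the neutrophil list, 3.67, all lay below the median of all genes.

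**Figure D2:**
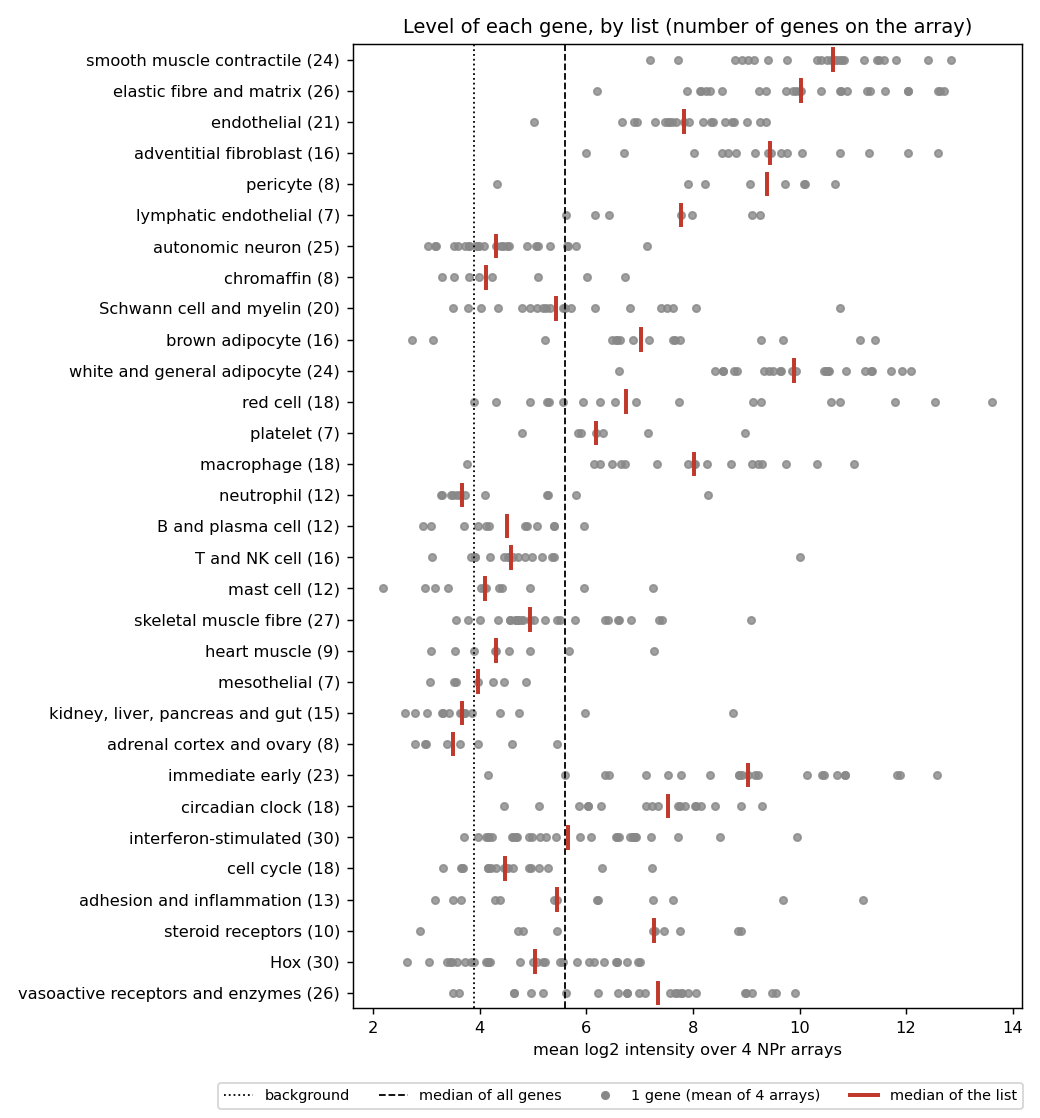
Mean log2 intensity over the 4 NPr arrays of each gene (grey points) in 31 lists of cell types and states, with the number of genes on the array in brackets. Red bars mark the median of a list, the dotted line the background threshold of 3.89 and the dashed line the median of all genes, 5.59. The smooth muscle, matrix and white and general adipocyte lists lie furthest to the right.

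To follow how a cell type varied between animals, each list was given a score per animal. The score is the mean, over the members above the threshold, of the log2 intensity minus the mean of that gene over the 4 animals, so that 0 is the average animal. The skeletal muscle fibre list had the widest scores, 3.32 log2 units from the lowest to the highest animal, followed by the brown adipocyte list with 2.51 and the red cell list with 2.03. The Hox and interferon lists had the narrowest, 0.17 and 0.19. The fibre, fat, red cell, platelet, neuron and chromaffin lists each spread more than any of the 6 lists of the wall, of which smooth muscle was the widest with 0.91, and so did the list of kidney, liver, pancreas and gut and that of neutrophils. Over all members on the array, the scores ranged over 1.41 units for neurons and 0.70 for neutrophils, in place of 1.60 and 1.01. Where members are counted, all members on the array are included, whether or not they passed the threshold. The matching shares of all genes were 11.6% for a range over 1 unit and 71.1% above the threshold.

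**Figure D3:**
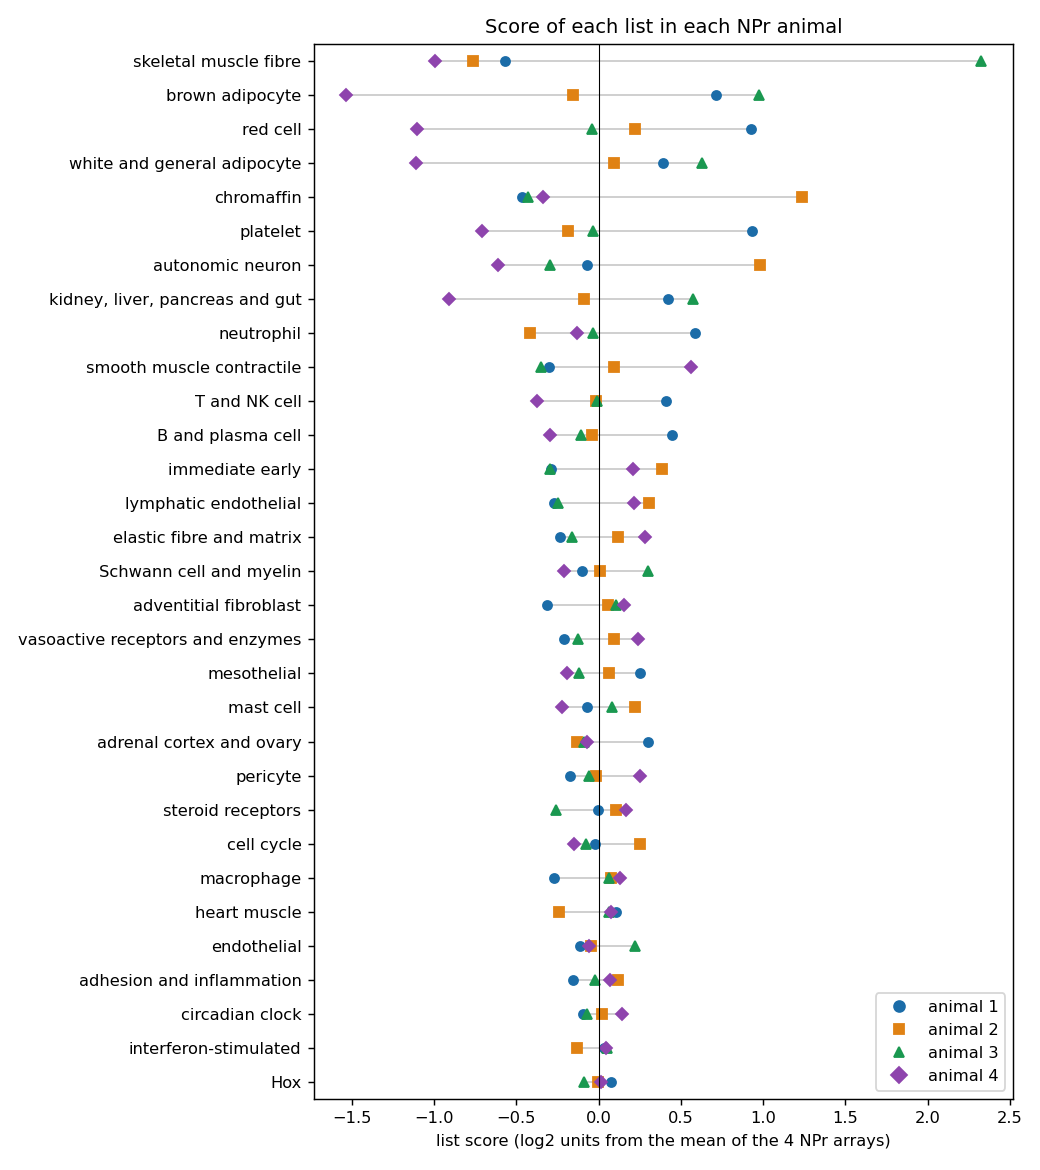
Score of each of 31 lists in each NPr animal, in log2 units from the mean of the 4 arrays, with lists ordered from the widest spread at the top to the narrowest at the bottom. Animal 3 stands alone to the right for the skeletal muscle fibre list at 2.33, animal 2 for the autonomic neuron list at 0.98, and animal 4 to the left for the brown adipocyte list at -1.54.

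All 24 contractile genes of smooth muscle lay above the threshold, between 7.19 and 12.83. Their scores were -0.30, 0.09, -0.35 and 0.56, so that animal 4 was the highest and animals 1 and 3 the lowest. Animal 4 was the highest in 23 of 24 genes, against 31.8% of all genes on the array. Tagln, which binds actin, had 11.98, 12.50, 12.29 and 12.87, and Cnn1, the basic calponin that restrains the myosin motor, had 10.85, 11.84, 11.17 and 12.09. Kcnmb1, the beta subunit of the large calcium-activated potassium channel, had 10.44, 11.61, 11.05 and 11.74. In these 3 genes the order of the animals was the same, 4 above 2 above 3 above 1.

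A range over 1 log2 unit was found in 11 of 24 contractile genes, against 11.6% of all genes. Actg2, the gamma actin of smooth muscle, varied most, with 9.65, 10.50, 9.96 and 11.48, a 3.55-fold difference between animals 4 and 1. Actin genes are close copies, so the value of each is less certain. Mrvi1, the substrate of protein kinase G that damps calcium release, had 9.07, 8.91, 7.97 and 9.71, and Lmod1, which nucleates actin filaments, had 9.11, 8.88, 8.55 and 10.02. Both were lowest in animal 3. Acta2 itself had a range of only 0.38.

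The 26 genes of elastic fibres and matrix, all above the threshold, followed the contractile genes at a smaller size. Their scores were -0.23, 0.12, -0.16 and 0.28, and 5 of 26 had a range over 1 unit, against 11.6% of all genes. Eln had 11.70, 12.29, 11.79 and 12.39, and Fbln5, which guides elastin onto microfibrils, had 9.87, 10.56, 10.16 and 11.05. Lox, the enzyme that cross-links elastin and collagen, had 10.28, 11.03, 10.42 and 11.35. These 3 genes were highest in animal 4 and next highest in animal 2. Collagens were steadier: Col1a1, a chain of the main fibrillar collagen, had 11.24, 11.37, 11.09 and 11.35 and Col3a1 had 11.12, 11.43, 11.17 and 11.61, while Col4a1, a chain of basement membrane collagen, had a range of only 0.21. Ltbp2, a microfibril protein, had the widest range of the list, 1.32 units, with 8.17, 8.76, 7.44 and 8.61. The ranges of Sparc, Bgn and Dcn were 0.32, 0.49 and 0.45.

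Endothelial genes were fainter than those of the media, with 7.84 as their median, and their median range, 0.52 units, was close to the 0.49 of all genes. Of 21 genes, all above the threshold, 2 had a range over 1 unit, against 11.6% of all genes. Their scores were -0.12, -0.05, 0.22 and -0.06, with animal 3 the highest in 15 of 21 genes, against 20.5% of all genes. Cdh5, the cadherin of endothelial junctions, was the brightest with 9.29, 9.32, 9.93 and 8.96. Nos3, the endothelial nitric oxide synthase, had 7.58, 7.34, 7.71 and 7.52, and Ecscr, which takes part in endothelial migration, had 8.26, 8.38, 8.41 and 8.28. The values of Nos3 lay within 0.37 units of each other. The 2 genes with wide ranges ran in opposite directions. Kdr, the main VEGF receptor, was lowest in animal 4 with 8.22, 7.91, 8.62 and 6.97, whereas Vwf, the adhesive protein that endothelial cells store for clotting, was highest there with 8.22, 8.57, 8.85 and 9.40. The low value of Kdr in animal 4 fell together with the low fat and red cell scores of that animal, and the part of fat in it was not tested.

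Fibroblast genes of the adventitia were bright, with all 16 above the threshold. Their scores were -0.32, 0.06, 0.11 and 0.15, and animal 1 was the lowest in 13 of 16 genes, against 24.8% of all genes. Dpt, a collagen-binding matrix protein, had 11.21, 11.23, 11.41 and 11.36, and Pdgfra, the receptor that marks fibroblasts, had 9.17, 9.56, 9.56 and 9.59. Pi16, a marker of adventitial fibroblasts in mice, had 9.41, 9.80, 10.25 and 9.57. The range of Dpt, 0.20 units, was the narrowest of the list. C3, the central complement protein, had the widest, with 5.70, 5.50, 5.41 and 7.37, so that animal 4 was 3.18-fold above the next animal. Abca8a, a lipid transporter, and Serping1, the inhibitor of the first complement component, were also highest in animal 4, with 8.86, 9.28, 9.48 and 10.05 and 9.26, 10.17, 10.26 and 10.54.

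The 8 pericyte genes included Mcam, an adhesion molecule of mural and endothelial cells, with 10.49, 10.73, 10.38 and 11.09 and Pdgfrb, the receptor that recruits mural cells, with 9.91, 10.25, 9.64 and 10.60. Many of them are also used by arterial smooth muscle, and the scores, -0.18, -0.02, -0.06 and 0.25, were highest in the same animal. Rgs5, a brake on G protein signalling that marks pericytes, was not: it had 9.53, 9.60, 10.18 and 9.57, with animal 3 the highest. Of the 7 lymphatic genes Lyve1, a hyaluronan receptor that resident macrophages also carry, had 8.74, 9.26, 8.99 and 9.42, and Prox1, the transcription factor that sets lymphatic identity, had 5.40, 5.80, 5.48 and 5.80. Ccl21, the chemokine by which lymph vessels draw in leukocytes, varied most with 7.56, 8.37, 6.86 and 8.30. All 7 genes lay above the threshold.

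Nerve genes were faint, and those of neurons stood out in a single animal. Of 25 genes of autonomic neurons, 17 lay above the threshold and 15 had a range over 1 unit. Some of these 17, such as Th, passed the threshold through animal 2 alone. Animal 2 was the highest in 17 of 25, against 13.0% of all genes, and lay over 1 unit above each other animal in 11, against 0.0982% of all genes. Th, the first enzyme of catecholamine synthesis, had 3.22, 6.10, 3.23 and 3.41, and Dbh, which turns dopamine into noradrenaline, had 4.67, 7.35, 4.52 and 3.83. Snap25, part of the machine that fuses transmitter vesicles, had 3.88, 7.08, 3.27 and 3.48. In the other 3 animals Th and Snap25 lay below the threshold, so no fold is given for them.

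Proteins of the cell body and axon showed the same animal. Uchl1, an abundant neuronal hydrolase of ubiquitin, had 5.14, 7.24, 5.06 and 5.16, and Nefl, the light neurofilament, had 3.85, 5.55, 3.39 and 3.09. Chrna3, the nicotinic receptor subunit of ganglion synapses, had 4.43, 6.05, 3.85 and 3.88, and Prph, the intermediate filament of peripheral neurons, had 4.33, 5.60, 3.67 and 3.66. In each of these genes the other 3 animals lay within 1 unit of each other, and animal 2 was more than 1 unit above all of them. Hand2 and Gata3, transcription factors of sympathetic neurons that other cells of the vessel also use, did not share this: Gata3 had 5.91, 5.82, 5.71 and 5.77 and Hand2 had 5.06, 5.57, 4.94 and 5.72. Phox2a, which sets autonomic identity, lay below the threshold on average with 3.59 ± 0.30. Chrnb4, another nicotinic subunit and the brightest gene of the list, did not share it either, at 8.21, 6.97, 7.96 and 5.38.

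Chromaffin cells are the adrenaline cells of the adrenal medulla and of small bodies beside the aorta. Their list shares Th, Dbh, Chgb and Scg2 with the neurons. The 8 genes of this list on the array were all highest in animal 2, against 13.0% of all genes. Of these 8, 5 lay above the threshold, against 71.1% of all genes. Animal 2 was over 1 unit above each other animal in 3 of 8, against 0.0982% of all genes. Penk, the precursor of enkephalins, had 5.87, 7.59, 6.33 and 7.09, and Chga, a granule protein, had 4.15, 4.81, 4.17 and 3.78. Slc18a1, the monoamine transporter of chromaffin granules, lay below the threshold with a mean of 3.30 ± 0.27. The part of ganglion or chromaffin cells in the values of animal 2 was not tested.

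Schwann cell genes did not follow the neurons. Their scores were -0.10, 0.01, 0.30 and -0.21, and 7 of 20 genes had a range over 1 unit, against 11.6% of all genes. Animal 3 was the highest in 9 of 20 genes, against 20.5% of all genes, though in none of those whose values follow. Pmp22, a membrane protein of peripheral myelin that other cells of the vessel also use, was the brightest with 10.51, 10.78, 10.81 and 10.98, and its range was 0.46. S100b, which adipocytes also express, had 8.22, 7.55, 8.07 and 6.65, lowest in animal 4 like the fat genes. Sox10, the transcription factor of the Schwann lineage, was steady at 5.54, 5.27, 5.39 and 5.06.

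Fat genes were as bright as genes of the wall and split the animals in a common order. All 24 genes of white and general adipocytes lay above the threshold, and 20 had a range over 1 unit. Their scores were 0.39, 0.10, 0.63 and -1.11. Animal 4 was the lowest in 23 of 24, against 29.7% of all genes, and over 1 unit below each other animal in 16, against 1.11% of all genes. Fasn, the fatty acid synthase, had 12.21, 11.88, 12.33 and 10.48, and Adipoq, the adipocyte hormone adiponectin, had 11.48, 11.48, 11.84 and 10.61. Pck1, which makes glycerol for storage of fatty acids, had 11.53, 10.21, 11.74 and 8.66, an 8.45-fold difference between animals 3 and 4. The exceptions to the wide ranges were Car3, a carbonic anhydrase of fat and muscle, with 11.83, 12.21, 12.03 and 11.59, Slc2a4, the insulin-sensitive glucose carrier, with 8.92, 8.41, 8.96 and 7.97, Plin4 with 8.48, 7.94, 8.76 and 8.45 and Lep, the hormone leptin, with 6.53, 6.85, 6.92 and 6.15.

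Brown fat genes varied more than those of fat in general. Of 16 genes 14 lay above the threshold and 13 had a range over 1 unit, against 11.6% of all genes, and the scores were 0.72, -0.15, 0.98 and -1.54. Cidea, a lipid droplet protein of brown fat, had 11.95, 11.56, 12.39 and 9.75, and Cpt1b, the carrier of fatty acids into muscle and brown fat mitochondria, had 10.61, 9.48, 11.05 and 7.62. Fabp3, which binds fatty acids, had 10.05, 9.21, 10.71 and 7.16, the widest of the list. Animal 4 was more than 1 unit below each other animal in 11 of 16 genes, against 1.11% of all genes. Ucp1 was 9.49-fold and Fabp3 11.8-fold higher in animal 3 than in animal 4, against 2.34-fold for Adipoq and 3.42-fold for Fabp4, the fatty acid binder of all adipocytes. Pck1 of the general list differed nearly as much as Ucp1. Fabp3 and Cpt1b are named for muscle, and animal 3 also had the highest fibre score, 2.33. The part of muscle fibres in their values was not tested. Zic1, a transcription factor of classical brown fat in mice, lay below the threshold in every animal with 3.07, 3.05, 3.33 and 3.04, and Lhx8, another such factor, had 5.54, 4.91, 5.37 and 5.10.

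The order of animals 3, 1, 2 and 4 from high to low was found in 11 of 16 brown and 18 of 24 white fat genes, against 8.14% of all genes. It was not particular to fat, since 12 of 27 skeletal muscle fibre genes and 5 of 21 endothelial genes also had it. Genes of other lists that had this order included Mpo, the peroxidase of neutrophil granules, with 8.74, 8.20, 9.24 and 6.94, while 11 other neutrophil genes did not have it. It was also that of Alb, the albumin made in the liver, with 9.77, 8.55, 10.07 and 6.59, of Cyp2e1 with 6.36, 5.96, 6.65 and 4.91, and of Npr3, the clearance receptor of natriuretic peptides, with 7.47, 6.69, 7.91 and 4.98. Apoa1, Ttr and Aqp2, markers of liver and kidney, had means of 4.39 ± 0.32, 3.67 ± 0.12 and 3.85 ± 0.46, all close to the threshold. Mybpc2, a myosin-binding protein of fast muscle, had 7.93, 6.88, 8.62 and 6.26 and followed the fat genes more closely than the fibre myosins.

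Red cell genes ordered the animals in another way. All 18 lay above the threshold, 13 had a range over 1 unit, and the scores were 0.93, 0.22, -0.04 and -1.11. The order 1, 2, 3, 4 from high to low held in 10 of 18 genes, against 5.48% of all genes. Alas2, the haem enzyme of red cell precursors, had 10.81, 9.95, 9.08 and 7.25, and Slc4a1, the anion exchanger band 3, had 8.58, 7.75, 6.39 and 5.03. Slc4a1 was 11.7-fold higher in animal 1 than in animal 4. Animal 4 was more than 1 unit below each other animal in 9 of 18 genes, against 1.11% of all genes.

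The globins themselves moved less, at the bright end of the scale. Hba2 had 13.77, 13.85, 13.65 and 13.19, a range of 0.66, whereas Hbb-b1, another beta globin gene, had 12.75, 12.26, 11.85 and 10.29. Ahsp, the chaperone of free alpha globin, had 7.37, 5.23, 6.09 and 3.55, and Hemgn, a nuclear protein of red cell precursors, had 7.67, 5.72, 6.08 and 4.24. Klf1, the transcription factor of the red cell lineage, was faint with 5.57, 4.72, 4.71 and 4.75. Globin genes are near-identical copies, so the share of each copy is uncertain.

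Platelet genes went with animal 1 as well. All 7 were above the threshold, all 7 had a range over 1 unit and all 7 were highest in animal 1, against 34.8% of all genes, and the scores were 0.93, -0.19, -0.04 and -0.71. Pf4, the platelet chemokine, had 9.74, 8.69, 9.03 and 8.46, Clec1b, the receptor for podoplanin, had 8.20, 6.94, 7.23 and 6.28, and Gp1ba, the receptor for von Willebrand factor, had 7.32, 6.42, 6.22 and 5.32. Animal 4 was the lowest in all 7, against 29.7% of all genes.

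**Figure D4:**
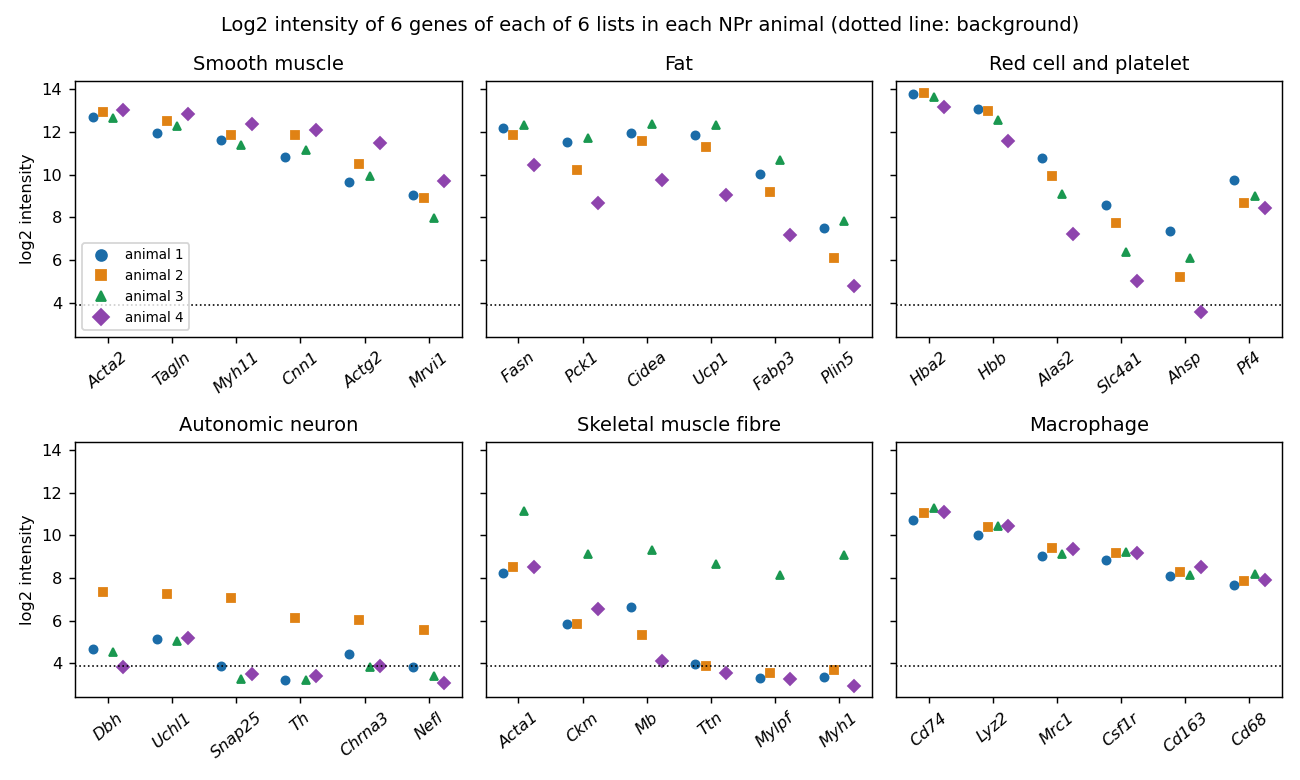
Log2 intensity of 6 genes of each of 6 lists in each NPr animal, with a dotted line at the background threshold of 3.89. The 4 animals lie close together for macrophage genes, animal 4 lies lowest for fat and red cell genes, animal 2 alone is high for the neuron genes, and animal 3 alone for the fibre genes, with Myh1 at 9.06.

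Macrophage genes were bright and the most alike between animals among the blood lists. Of 18 genes 17 lay above the threshold, and 0 had a range over 1 unit, against 11.6% of all genes. Cd74, the invariant chain of class II molecules, which other antigen-presenting cells also express, had 10.71, 11.05, 11.26 and 11.09, Mrc1, the mannose receptor of resident macrophages, had 9.01, 9.38, 9.13 and 9.36, and Csf1r, the receptor for their growth factor, had 8.86, 9.17, 9.19 and 9.18. Cd163, the scavenger receptor for haemoglobin, had 8.10, 8.28, 8.16 and 8.52. Animal 1 was the lowest in 15 of 18 genes, against 24.8% of all genes, although by little, with scores of -0.27, 0.08, 0.06 and 0.13. This was not particular to macrophages, since animal 1 was also the lowest in 13 of 16 fibroblast and 15 of 26 matrix genes. Marco, a scavenger receptor of alveolar and splenic macrophages, lay below the threshold with 3.75 ± 0.24. Cd4, which rat macrophages carry as T cells do, had 9.31, 10.44, 10.26 and 10.03 and was lowest in animal 1, as the macrophage genes were.

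Lymphocyte genes were faint and highest in animal 1. Of 16 genes of T and NK cells 14 lay above the threshold, against 71.1% of all genes, animal 1 was the highest in 14, against 34.8% of all genes, and the scores were 0.41, -0.02, -0.01 and -0.38. Cd3e, a chain of the T cell receptor complex, had 5.78, 5.11, 4.82 and 4.19, and Cd8a had 5.99, 5.20, 5.39 and 4.86. Of 12 B and plasma cell genes 9 lay above the threshold, a share close to that of all genes, and 9 were highest in animal 1, against 34.8% of all genes. Pax5, the transcription factor of B cells, had 6.17, 5.19, 5.41 and 4.83, and LOC100913063, which RefSeq places under the listed symbol Cd79a, a chain of the B cell receptor, had 7.43, 5.94, 5.73 and 4.76. The receptors that serve as background also read highest in animal 1, and their part in this was not tested.

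The medians of the neutrophil and mast cell lists, 3.67 and 4.10, were close to background, although single members were bright. Of 12 neutrophil genes 5 lay above the threshold, against 71.1% of all genes. The brightest was Mpo, whose values are given with the fat genes. The 5 also included S100a9, a calcium-binding protein of granulocytes, with 6.85, 5.33, 5.12 and 5.90, and Cxcr2, the receptor for chemokines that draw neutrophils, with 6.23, 4.49, 5.29 and 5.00. S100a8, the partner of S100a9, lay below the threshold on average with 3.87, 3.50, 3.47 and 4.03. Of the mast cell genes Mcpt1l1, a mast cell protease, was the brightest with 6.69, 8.03, 7.74 and 6.57, followed by Cpa3, their carboxypeptidase, with 5.48, 6.54, 6.53 and 5.26. Both were higher in animals 2 and 3 than in animals 1 and 4, by about 1 unit. Kit, the receptor for stem cell factor, had 5.23, 4.84, 5.01 and 4.66.

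Skeletal muscle genes were the most divided of all lists. Of 27 fibre genes 25 lay above the threshold on average, a mean that for many of them rested on animal 3, and 25 had a range over 1 unit. Animal 3 was over 1 unit above each other animal in 22 of 27, against 0.320% of all genes. Myh1, Myh4 and Myh2, the fast myosin heavy chains of the adult, had 3.38, 3.70, 9.06 and 2.95, 4.19, 3.43, 8.10 and 3.51 and 3.99, 3.72, 7.72 and 3.41. Ttn, the giant spring of the sarcomere, had 3.96, 3.90, 8.65 and 3.56, and Mb, the oxygen store myoglobin, had 6.66, 5.31, 9.33 and 4.13. In animals 1, 2 and 4 the myosins and Ttn were near the threshold. Slow fibre genes were also highest in animal 3. Myh7, the slow myosin, had 4.43, 4.37, 7.21 and 3.74 and Tnnt1, the slow troponin T, had 4.32, 4.07, 6.32 and 4.11.

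The embryonic and neonatal myosins were not part of it: Myh3 had 3.77, 3.47, 3.54 and 3.43 and Myh8 had 4.18, 3.53, 3.91 and 3.47. Acta1, the actin of skeletal muscle, had 8.25, 8.51, 11.13 and 8.51, and thus stayed far above the threshold in the animals whose fibre myosins were near it. The part of other actins in its signal was not tested. Most heart muscle genes were faint, and 2 of 9 had a range over 1 unit, against 11.6% of all genes. Myh6, the atrial myosin, had 4.72, 3.95, 4.19 and 4.33, and Nppa, Nppb and Tnni3, an atrial peptide, its ventricular relative and the cardiac troponin I, lay below the threshold on average with 3.89 ± 0.32, 3.53 ± 0.13 and 3.09 ± 0.18. Myl2, a light chain of slow fibres and of the ventricle, had 3.88, 4.19, 5.96 and 4.12, again high in animal 3 only, and Ryr2, the calcium release channel of heart and smooth muscle, had 7.43, 7.26, 6.35 and 8.03. The source of the fibre transcripts in animal 3 was not tested.

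The promoters of muscle genes are known for the CArG box, a stretch rich in A and T that binds serum response factor and serves smooth, skeletal and immediate early genes. Its strict form, CCWWWWWWGG with W for A or T, was searched from 250 bases before to 50 bases after each RefSeq start. This form reads alike on both strands, and looser forms with another base in the middle were not searched. The strict form was present in 1.64% of 33469 promoters. Among genes that could be matched, it was present in 4 of 15 immediate early, 2 of 25 fibre and 0 of 19 contractile smooth muscle genes. The share is over promoters, whereas a listed gene counted when any of its promoters held the form. Boxes of a looser form or outside the window would be missed. The upstream sequence of Acta1 (chr19:68784195-68784444, minus strand) is shown for the gene that carried the brightest fibre signal, and that of Egr1 (chr18:26736828-26737077, plus strand) for the brightest immediate early gene with the box, both of GRCr8, shown up to the start and with the box in capitals:
Acta1: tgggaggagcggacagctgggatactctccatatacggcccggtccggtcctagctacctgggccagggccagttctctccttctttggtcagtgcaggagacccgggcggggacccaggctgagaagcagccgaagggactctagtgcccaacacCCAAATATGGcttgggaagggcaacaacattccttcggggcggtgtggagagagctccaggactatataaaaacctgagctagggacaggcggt
Egr1: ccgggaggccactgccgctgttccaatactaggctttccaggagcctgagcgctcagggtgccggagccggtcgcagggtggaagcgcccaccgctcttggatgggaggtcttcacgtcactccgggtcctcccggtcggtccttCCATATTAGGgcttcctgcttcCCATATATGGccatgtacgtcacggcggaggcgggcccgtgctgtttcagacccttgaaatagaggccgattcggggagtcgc
Acta1 holds 1 box of the strict form, which begins 94 bases before the start. Egr1 holds 2, of which the nearer begins 83 bases before its start. Looser forms are not marked. A match describes letters in the window and no binding, and no match says only that these letters are not in it.

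Mesothelial, adrenal and ovarian genes gave little signal. Msln and Upk3b, markers of the mesothelium that lines the abdomen, had 5.09, 4.38, 4.36 and 4.01 and 4.14, 2.69, 2.84 and 2.59, with animal 1 the highest for both. Of 8 genes of the adrenal cortex and ovary 3 lay above the threshold, led by Star, the cholesterol carrier of steroid synthesis, with 5.64, 5.47, 5.07 and 5.60. Cyp11b2, Cyp19a1 and Fshr all lay below it, with 2.97 ± 0.22, 2.98 ± 0.15 and 2.78 ± 0.21.

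Immediate early genes, which are switched on within minutes by stretch, growth factors or handling, were among the brightest of the vessel. All 23 lay above the threshold, their median was at the 94.3rd percentile, and 8 had a range over 1 unit. Dusp1 had 12.21, 12.85, 12.47 and 12.77, Egr1, a zinc finger factor, had 11.62, 12.11, 11.74 and 12.09, and Fos, a partner in the AP-1 factor, had 10.44, 10.92, 10.37 and 11.10. Cyr61, a matrix protein of the same response, had 11.33, 12.07, 11.70 and 12.21. The scores were -0.29, 0.39, -0.30 and 0.21, with animals 2 and 4 high and animals 1 and 3 low. The widest were Nr4a3, an orphan nuclear receptor, with 7.12, 8.98, 7.0 and 8.01, and Fosb with 7.34, 9.19, 8.22 and 8.54. Ptgs2, the inducible cyclooxygenase, and Vcam1, an adhesion molecule for leukocytes, split in the same way, with 10.47, 11.85, 10.77 and 11.70 and 9.13, 10.31, 9.36 and 9.98. Il6, Nos2 and Cxcl2, genes of acute inflammation, lay below the threshold with 3.65 ± 0.19, 3.49 ± 0.13 and 3.16 ± 0.40.

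Clock genes, which keep the daily rhythm of the cell, lay above the threshold in all 18 cases. Of these, 5 had a range over 1 unit, against 11.6% of all genes. Arntl, which encodes the activator BMAL1, had 7.97, 8.30, 7.89 and 8.05, and Dbp, an output of the clock, had 7.37, 7.65, 7.98 and 8.06. Per1 and Per2, its repressors, had ranges of 1.28 and 1.36 units, with 8.19, 8.96, 7.69 and 8.84 and 7.12, 7.29, 6.57 and 7.92.

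Interferon genes were at the median of the array, and 2 of 30 had a range over 1 unit, against 11.6% of all genes. Their median range, 0.63 units, was wider than the 0.49 of all genes, although their list score was narrow. Ifi27, a mitochondrial protein induced by interferon, was the brightest with 9.67, 9.80, 10.49 and 9.87, and Irf7, a transcription factor of the response, had 6.93, 6.92, 6.93 and 6.71. The 2 genes over 1 unit were Rsad2, which encodes viperin, with 8.08, 7.33, 6.17 and 4.85, and Ifit1 with 5.01, 3.01, 5.00 and 2.84. Rsad2 had the order of the red cell genes, whereas Ifit1 was high in animals 1 and 3 and at background in animals 2 and 4. Their neighbours in the response, such as Isg15 with 5.70, 5.79, 5.85 and 6.15 and Mx1 with 5.15, 4.86, 4.54 and 5.39, shared neither pattern.

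Cell cycle genes were faint. The median of 18 cell cycle genes was 4.47, 14 of them lay above the threshold, and 1 had a range over 1 unit. Mki67, the proliferation antigen, had 6.41, 6.59, 6.24 and 5.93, and Cdk1, the kinase that drives mitosis, lay below the threshold on average with 3.94, 3.86, 3.49 and 3.33. Hox genes, which record the position along the body axis, were the steadiest list, with 0 of 30 over a range of 1 unit, against 11.6% of all genes. Above the threshold lay 22 of 30, a share close to the 71.1% of all genes. Hoxc6 had 7.08, 6.90, 6.89 and 6.99 and Hoxc8 had 6.54, 6.66, 6.74 and 6.35, while Hoxc13 and Hoxb13 of the tail end lay below the threshold with 3.57 ± 0.17 and 3.39 ± 0.06.

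The hormone receptors of the cycle were measured on diestrus in all 4 rats. Esr1, the alpha receptor of oestrogen, had 6.95, 7.63, 7.05 and 7.51, and Esr2, the beta receptor, lay below the threshold with 3.14, 2.60, 2.95 and 2.85. Pgr, the receptor of progesterone, had 7.43, 7.38, 6.40 and 7.77, and Rxfp1, the receptor of relaxin, had 9.26, 9.26, 7.96 and 9.12. Animal 3 was the lowest for both, 0.98 and 1.16 units below the next rat. The receptors of glucocorticoids and mineralocorticoids, Nr3c1 and Nr3c2, were steady at 8.64, 9.03, 8.77 and 8.96 and 7.60, 7.83, 7.68 and 7.96.

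Genes that set vascular tone were led by the prostanoid enzymes. Ptgs1, the constitutive cyclooxygenase, had 9.36, 10.10, 9.69 and 10.48, and Ptgis, the prostacyclin synthase, had 9.20, 9.55, 9.09 and 10.39. Gucy1a3 and Gucy1b3, the 2 subunits of the receptor for nitric oxide, had 8.55, 8.72, 8.76 and 9.90 and 7.15, 7.67, 7.46 and 8.52. All 4 were highest in animal 4, as the contractile genes were. Agtr1a, the main angiotensin receptor, was among the steadiest with 7.39, 7.64, 7.70 and 7.55, and Ednra, the endothelin receptor of muscle, had 7.98, 8.07, 7.72 and 8.43. Adra1a, an alpha adrenoceptor, had the order of the fat genes with 7.04, 6.58, 7.67 and 5.74, while Adra1d, the alpha adrenoceptor best known from the rat aorta, had 6.50, 6.12, 5.86 and 6.39. Of 26 genes 14 had a range over 1 unit, against 11.6% of all genes.

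Across the whole array the animals differed in how many genes stood apart, meaning over 1 log2 unit from each of the other 3 arrays. Animal 4 was below the others in 215 genes, 1.11% of the array, and above them in 26, or 0.134%. Animal 1 was above in 89, or 0.460%, and below in 32, or 0.165%. Animal 3 was above in 62, the 0.320% given with the fibre genes, and below in 6, or 0.0310%. Animal 2 was above in 19 genes and below in 7, or 0.0362%. Of the 19 genes above in animal 2, 11 were neuron genes, and of the 62 in animal 3, 22 were fibre genes.

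**Figure D5:**
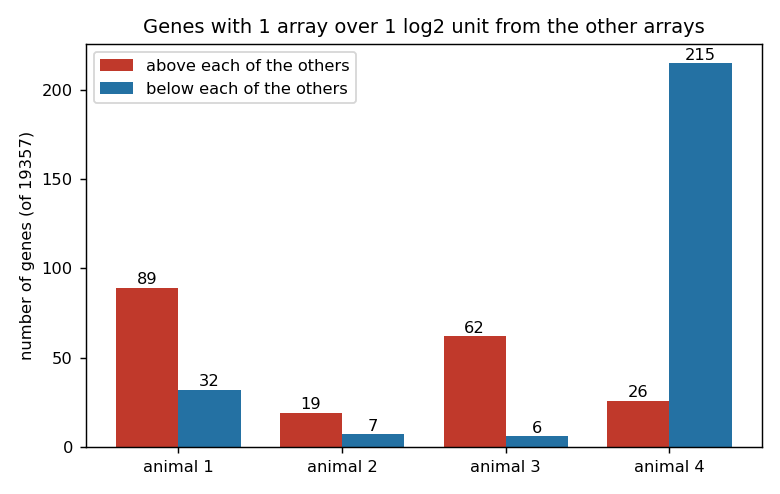
Number of genes, of 19357, whose log2 intensity in 1 NPr animal lay over 1 unit above (red) or below (blue) each of the other 3 animals. Animal 4 has the most genes below, 215, and animal 1 the most above, 89. Over genes above background only, animal 3 has the most above, 50, against 39 for animal 1.

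The genes below in animal 4 were led, beside the fat and red cell genes, by Klrc3 with 5.08, 5.12, 4.71 and 2.12 and Atp5j2 with 10.24, 10.17, 11.26 and 7.83, which were read by 3 and 4 probes, and by Adtrp, a membrane hydrolase of fatty acid esters, with 7.78, 7.20, 8.46 and 4.90. Those above in animal 4 were led by Sv2c, a synaptic vesicle protein, with 5.20, 4.13, 5.90 and 7.93, then by C3 and by Trpm8, the cold and menthol channel, with 6.41, 6.94, 6.48 and 8.28. Sv2c was lowest in animal 2, where Snap25 was highest. In animal 1 the genes below were led by Hnrnpa2b1 with 2.85, 5.29, 5.18 and 5.95 and Tuba1a with 6.95, 9.52, 9.10 and 9.94, read by 4 and 5 probes. Of the 32 genes below in animal 1, 24 had fewer than 10 probes, against 6.77% of the array, and of the 89 above 37 had fewer than 10.

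In animal 3 the genes below were few. They included Rxfp1, Wscd2 with 6.35, 6.23, 4.86 and 6.53 and Wnt16, a secreted Wnt ligand, with 5.94, 5.93, 4.62 and 5.77. In animal 2 they included Ooep, first known from oocytes, with 7.17, 4.00, 5.58 and 6.83. Genes with fewer than 10 probes had a range over 1 unit in 30.5% of cases, against 11.6% over all genes, so the spread of such genes is less certain. Of the 20 genes above the threshold with the widest ranges, 10 were fibre genes, 4 red cell genes and 2 neuron genes, and the others were Sv2c, Car2, a carbonic anhydrase of red cells and other tissues with 9.21, 7.77, 7.70 and 5.60, Fabp3 and Adtrp.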

How the data were processed

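Each of the 4 non-pregnant rats gave RNA of its whole abdominal aorta for 1 Affymetrix Rat Gene 1.1 ST array. The authors computed expression values in the MADMAX pipeline with robust multichip average (RMA), which includes quantile normalisation over the arrays, and with a custom annotation that combines all probes of a gene. The version of the pipeline is not given in the sources used here. The deposited values were intensities on a linear scale, from which log2 was taken. Because the arrays of all groups were normalised together, their overall distributions are alike by construction, and a value of 1 animal depends slightly on the other arrays. A second deposited table held the same values for these animals. The columns of the authors' own comparisons (fold changes, raw p-values and q-values) and of the spread over all arrays were not used, nor were the 10 arrays of the other groups.

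Genes were named by the symbol and Entrez number of the deposited table. Of the entries of 32 gene lists, 515 matched by symbol, 10 through the RefSeq table, 42 were not on the array and 3 were duplicates, which left 518 different genes. The members and lists were chosen with earlier results of these data known. A gene lay above background when its mean exceeded the 95th percentile of the sensory receptor genes. Groups were not compared, since there is 1 group, and Dixon's test was used only to mark animals apart. Precision is set by the number of arrays. The text names the 30 highest genes and the 20 widest, up to 5 of the highest and 3 of the widest per list, and up to 6 genes above and 4 below the others per array, though not all that this allows. Some further genes were picked once the values were known. They are Adra1d, Agtr1a, Cd163, Cdk1, Chgb, Col1a1, Col3a1, Col4a1, Csf1r, Cxcl2, Cyp11b2, Cyp19a1, Dbp, Ecscr, Ednra, Esr2, Fos, Fshr, Gucy1a3, Gucy1b3, Hoxb13, Hoxc13, Il6, Irf7, Isg15, Kcnmb1, Klf1, Lep, Lhx8, Marco, Mir125b2, Mir143, Mir145, Mir207, Mir22, Mx1, Myh3, Myh7, Myh8, Nos2, Nos3, Nppa, Nppb, Pdgfra, Phox2a, Pi16, Plin4, Prox1, Prph, S100a8, Scg2, Slc18a1, Slc2a4, Sox10, Tnni3, Tnnt1, Ttr, Upk3b and Zic1.

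Some genes are not reported here by name, though counts over lists include them. The counts were tested on simulated data first. Alternatives were another threshold, scaling, filter, minimum number of probes and summary over genes, the second table, and leaving out each array in turn. Python 3.11.15, numpy 2.4.6, pandas 2.3.3 and matplotlib 3.10.9 were used.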

Additional observations from a re-analysis of the deposited data

Results flagged for a closer look

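In a group of 4, an animal was marked as standing apart when its gap to the nearest other animal, divided by the whole range, was over the 95% critical value of Dixon's test. Chance marks about 1 group in 20. Of all 19357 genes 1032, or 5.33%, were over it, of the 192 genes named here 24, and of the 31 list scores 5. Many of the named genes were chosen for a wide range or for 1 array apart, so their share follows from the choice and is read no further. The ratios take no account of size, so a gene with a narrow range can be marked.

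Among the list scores, animal 2 stood apart above the others for chromaffin genes with a ratio of 0.922, and below them for heart muscle genes with 0.882 and interferon genes with 0.902. Animal 3 stood above for skeletal muscle fibre genes with 0.871, and animal 1 above for adrenal cortex and ovary genes with 0.860. A score holds only members whose mean passed the threshold, and some chromaffin and fibre genes passed it through the animal apart alone, so the ratios of these lists are descriptions and support nothing. Over all members on the array the scores ranged over 1.37 log2 units for chromaffin genes and 3.10 for fibre genes, in place of 1.71 and 3.32.

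Animal 3 was the one apart in 11 genes, Zic1 below among them. The ratio was 0.909 for Acta1, 0.877 for Myh1, 0.866 for Myh2, 0.837 for Myh4, 0.848 for Myl2, 0.889 for Tnnt1 and 0.923 for Ttn, all high there. It was 0.887 for Rgs5, also high, and 0.893 for Rxfp1 and 0.868 for Wnt16, both low. Animal 2 was apart above in the neuron genes Th with 0.934, Snap25 with 0.840 and Uchl1 with 0.952.

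Animal 4 was apart above for C3 with 0.853 and Gucy1a3 with 0.848, and below for Irf7 with 0.961 and Klrc3 with 0.863. Irf7 had a range of only 0.22 log2 units. Animal 1 was apart above for Il6 with 0.891, Klf1 with 0.956 and Upk3b with 0.841, and below for Csf1r with 0.942, Ddx3y with 0.933 and Pdgfra with 0.939. Zic1, which lay below the threshold in every animal, had 0.914 with animal 3 the highest, and Il6 and Ddx3y also had means below it.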

How the results depend on the processing

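The number of genes above background, 13767, stayed within 1.5 times under all alternatives run, between 11570 with the 99th percentile of the receptors and 13767. The number with a range over 1 log2 unit, 2248, was 1984 after quantile normalisation of the 4 arrays once more and 1831 over genes above background only. Leaving out 1 array gave 1045 to 2004, the lowest without animal 4 and 1389 without animal 1, since fewer arrays give a smaller range by construction. Of the genes with animal 1 above the others, 89, there were 55 after the further quantile normalisation and 39 above background. For animal 3 these counts were 65 and 50, so animal 3 then had more genes above than animal 1. Animal 1 was below in 50 genes after the further quantile normalisation, against 32, and animal 3 in 11, against 6. Animal 2 was below in 4 genes above background, against 7. The counts for animal 4 and for animals 2 and 3 above stayed within 1.5 times under these 2 settings and under centring.

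Of the 31 lists, 13 kept both the highest and the lowest animal of their score under 4 alternatives, among them the smooth muscle, neuron, fibre, fat, red cell, platelet and macrophage lists. The other 18 did not, and the interferon list had another highest animal in all 4. Several spreads rested on 1 animal. Without animal 3 the range of the fibre score was 0.43 in place of 3.32 log2 units and of the endothelial score 0.07 in place of 0.33. Without animal 2 it was 0.54 for neurons and 0.13 for chromaffin cells. Without animal 4 it was 0.44 for smooth muscle, 0.53 for white and general fat, 1.13 for brown fat and 0.97 for red cells, and without animal 1 it was 0.68 for platelets, 0.09 for fibroblasts, 0.07 for macrophages and 0.26 for B and plasma cells. The cause of the other moves was not tested. No paired analysis was possible because there is only 1 group.

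With 4 arrays no statement on a single animal has a replicate of that animal. Genes near the threshold carry little signal, probes per gene vary, and expression differences between genes are differences of intensity.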
